A study of Danio rerio with 6 samples.

Results

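The genes described here are 7 zebrafish genes of haem synthesis and of embryonic red cells, namely alas2, cpox, fech, slc25a37, hbbe2, tal1 and znfl2a. They were found as the probe sets whose annotation holds a single symbol, being any of these, which gave 7 probe sets, 1 for each gene, out of 15726 probe sets and 11304 genes measured. The genes were picked with their difference between the groups already known, so that this difference is given below as a description, with no test. Expression was measured in whole zebrafish embryos at 48 h after fertilization, with total RNA on 1 Affymetrix array per sample. In 3 samples the embryos received setb MO1, a morpholino against setb, at the single-cell stage, and in the other 3 a control morpholino. The sources used here give neither strain nor genotype, nor whether MO1 acts on translation or on splicing. Morpholinos are antisense oligonucleotides, and setb corresponds to mammalian SET, which encodes a histone chaperone that also inhibits a protein phosphatase. Phenotypes had been scored as normal-like, mild or moderate, and the labels do not say which class went into which sample.

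Haem is made by a chain of enzymes that begins and ends in the mitochondrion. The first, the joining of glycine and succinyl-CoA, is carried out by 5-aminolevulinate synthase, which exists as an erythroid form, encoded by alas2, and a form of all tissues, encoded by alas1. Late in the pathway cpox encodes coproporphyrinogen oxidase, and fech encodes ferrochelatase, which inserts iron into protoporphyrin. That iron enters the mitochondrion through mitoferrin 1, the product of slc25a37. Zebrafish mutants of alas2 (sauternes), fech (dracula) and slc25a37 (frascati) are known for their pale or light-sensitive blood. Embryonic red cells fill with haemoglobin of embryonic chains such as the beta-type chain encoded by hbbe2. The transcription factor gene tal1, also called scl, is required to form blood from mesoderm and is also active in some spinal neurons. The gene znfl2a encodes a zinc finger protein.

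Values are log2 intensities, on which a difference of 1 is a doubling, and medians of the 6 arrays lay between 9.47 and 9.49. Arrays correlated across probe sets at 0.964 to 0.990 within a group and at 0.884 to 0.930 between groups, where probe sets are no independent replicates. The log2 level of setb itself was 12.69, 12.60 and 12.66 in setb MO1 embryos, against 12.51, 12.48 and 12.38 in control embryos, and so was not lower after injection of its morpholino. The labels do not say whether the samples of a group are separate clutches, and p-values therefore measure only the spread between these samples, possibly a technical one.

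The 7 genes fell into both directions. The erythroid synthase gene alas2, the globin gene hbbe2 and tal1 were lower in setb MO1 embryos, by 1.78-fold, 1.62-fold and 1.72-fold. The later genes of haem synthesis, cpox and fech, the iron carrier gene slc25a37 and znfl2a were higher, by 1.44-fold, 1.19-fold, 1.22-fold and 1.23-fold. None reached a 2-fold difference. Red cells were represented on all arrays, with the red cell markers slc4a1a, hbae1.1, hbae3 and hbbe3 at log2 levels of 10.99 or more. The further red cell marker gata1a was dim, at 8.29 to 8.85. The groups did not overlap in any of the 7 genes, where 58% of all genes were likewise apart, 30.6% with setb MO1 higher and 27.4% with it lower, and nothing is read from it since the genes were picked on this contrast. In whole embryos, fewer cells of a type and less RNA per cell cannot be told apart.

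**Figure D1:**
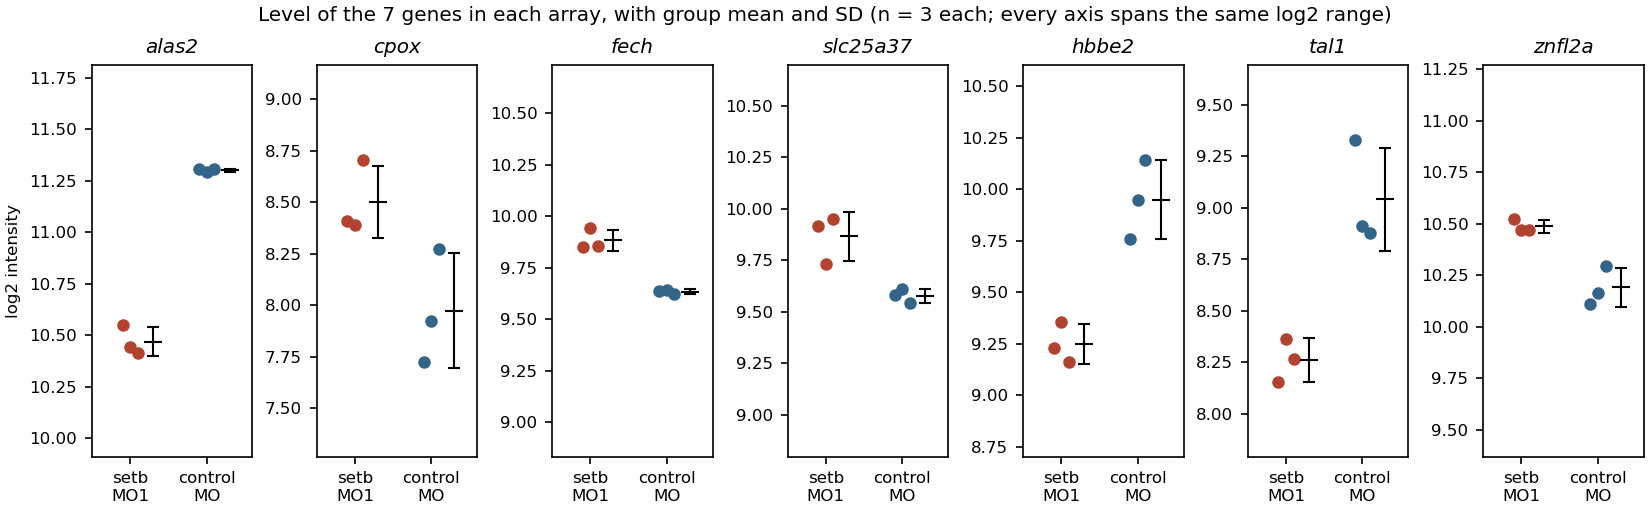
Log2 intensity (y axis) of each of the 7 genes in the 3 setb MO1 arrays (red, left) and the 3 control morpholino arrays (blue, right), with the group mean and SD as a bar, on axes of equal span. The setb MO1 points lie below the control points for alas2, hbbe2 and tal1 and above them for cpox, fech, slc25a37 and znfl2a, with the widest gap in alas2 (0.74).

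Of the 4 genes of haem synthesis and its iron supply, alas2 was the only one that was lower. Its log2 level was 10.55, 10.45 and 10.41 in setb MO1 embryos, against 11.30, 11.29 and 11.31 in control embryos. The control arrays differed from each other by at most 0.015, and the lowest control value stood 0.74 above the highest setb MO1 value. The mean was 10.47 ± 0.071 in setb MO1 and 11.30 ± 0.0083 in control embryos (SD, n = 3 each), a difference of -0.83 ± 0.06 (SE).

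Coproporphyrinogen oxidase went the other way but varied more. The log2 level of cpox was 8.41, 8.39 and 8.70 in setb MO1 embryos, against 7.73, 7.92 and 8.27 in control embryos. The groups were separated by only 0.12, less than the range of 0.55 among the control arrays. The difference of the means, 8.50 ± 0.18 and 7.98 ± 0.28 (SD, n = 3 each), was 0.53 ± 0.15 (SE). All 3 control values lie under 8.45, a level that each of the 15726 probe sets reached on at least 1 array. The control level may therefore be near background, which can shrink a difference. Only setb MO1 replicate 3 (8.70) passed that level, and such a selection through a single group favours a difference. The size of the difference is thus uncertain in both directions.

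Ferrochelatase had a small and even difference. The log2 level of fech was 9.85, 9.94 and 9.85 in setb MO1 embryos, against 9.64, 9.64 and 9.62 in control embryos. The 3 control arrays lay within 0.020 of each other and all were below the setb MO1 arrays. The difference was 0.25 ± 0.06 (SE, n = 3 and 3).

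The mitochondrial iron carrier gene slc25a37 resembled fech in size. Its log2 level was 9.92, 9.73 and 9.95 in setb MO1 embryos, against 9.58, 9.61 and 9.54 in control embryos. Here setb MO1 replicate 2 lay closest to the control arrays, 0.12 above the highest of them. The difference was 0.29 ± 0.08 (SE).

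The globin gene hbbe2 was at a log2 level of 9.23, 9.35 and 9.16 in setb MO1 embryos, against 9.76, 9.95 and 10.14 in control embryos. The setb MO1 arrays spread over 0.19 and the control arrays over 0.38, with a gap of 0.40 between them. The difference was -0.70 ± 0.11 (SE, n = 3 and 3). Globin genes are close copies of each other, so a probe set may also detect transcripts of other members. In the gene order of a RefSeq gene table, the nearest protein-coding neighbours of hbbe2 are the globin genes hbae5 and hbbe3. A further probe set, annotated to both hbbe2 and hbae5 and therefore no member here, was at 8.12, 8.11 and 7.84 in setb MO1 embryos, against 8.71, 8.34 and 8.19 in control embryos. All but control replicate 1 lay under 8.45, so this probe set was near the dim limit of the table and nothing is read from it.

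The blood transcription factor gene tal1 was at a log2 level of 8.15, 8.36 and 8.27 in setb MO1 embryos, against 9.33, 8.91 and 8.88 in control embryos. Control replicate 1 was the highest array, and the groups were 0.51 apart. The difference was -0.78 ± 0.13 (SE), and -0.63 without control replicate 1. As with cpox, a group lay at a dim level, here the setb MO1 arrays, which were all under 8.45. The probe sets of cpox and tal1, 2 of the 7, are thus in the table only through the group where they were high.

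The zinc finger gene znfl2a was at a log2 level of 10.52, 10.47 and 10.47 in setb MO1 embryos, against 10.11, 10.16 and 10.30 in control embryos. The setb MO1 arrays agreed within 0.057 and the control arrays within 0.18. The difference was 0.30 ± 0.07 (SE).

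Within the groups the 7 genes did not vary as 1 block. Deviations of each array from its own group mean do not contain the difference between the groups that the genes were picked on. Among the control arrays, cpox, hbbe2 and znfl2a were lowest in replicate 1 and highest in replicate 3, and tal1 was highest in replicate 1 and lowest in replicate 3. Of hbbe2 the control deviations were -0.19, -0.0016 and 0.19, and of tal1 they were 0.29, -0.13 and -0.16. In alas2 and fech no control deviation exceeded 0.011.

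The deviations of the 3 lower genes did not rise and fall together across the 6 arrays. Their correlation was 0.033 for alas2 with hbbe2, -0.25 for alas2 with tal1 and -0.63 for hbbe2 with tal1. Of the 9 pairs of genes that differed in the same direction between the groups, 3 had a correlation of deviations above 0, with a median of -0.25. Of the 12 pairs that differed in opposite directions, 6 had a correlation above 0, with a median of -0.063. The highest values were those of hbbe2 with znfl2a (0.80) and of cpox with znfl2a (0.71), and the lowest was that of fech with slc25a37 (-0.87). With 6 arrays and the group means taken out these correlations are only a description, and all pairs share the same arrays.

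**Figure D2:**
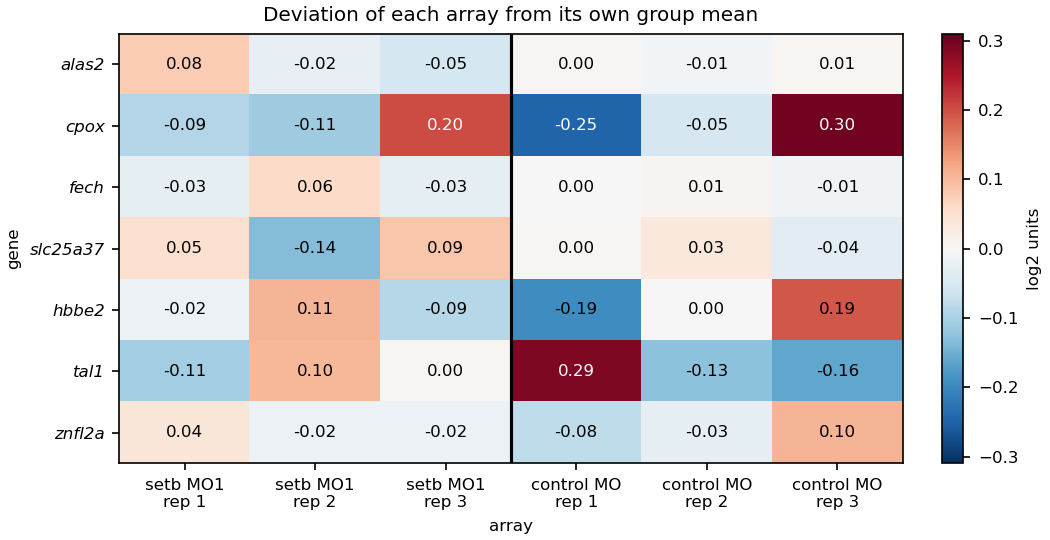
Deviation of each array (x axis) from the mean of its own group for each of the 7 genes (y axis), in log2 units by colour and number, setb MO1 arrays left of the line and control arrays right of it. The widest deviations are those of cpox (-0.25 to 0.30) and tal1 (-0.16 to 0.29), while alas2 and fech stay within 0.080 of their group means.

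Across all 6 arrays, the 5 genes whose profile was most like that of alas2, among 10569 genes with a symbol that is no clone or locus name, were arhgef7a, dixdc1a, ptpn5, ccni and myt1b. Their Pearson correlation with alas2 was 0.998 to 1.0 over the 6 arrays, a figure dominated by the step between the groups. The correlation of deviations from the group means for these genes, which their choice by likeness over the same arrays favours, was 0.97 for arhgef7a, 0.91 for dixdc1a, 0.87 for ptpn5, 0.93 for ccni and 0.82 for myt1b. The gene arhgef7a, which encodes a guanine nucleotide exchange factor, had a mean log2 level of 8.95 in setb MO1 and 9.93 in control embryos. The difference was -0.98 for arhgef7a, -0.74 for dixdc1a, -0.86 for the phosphatase gene ptpn5, -0.76 for the cyclin gene ccni and -1.28 for the zinc finger gene myt1b.

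The other genes of haem, iron and red cells were taken from 6 lists that leave out the 7 genes. They were compared by limma with Benjamini-Hochberg adjustment over all 11304 genes, of which 44.7% passed at 0.05, 23.9% higher and 20.8% lower in setb MO1 embryos. The median difference over all genes was 0.023. No test was made of a list as a whole. Every probe set in the table reached 8.45 on at least 1 array, and a gene with all arrays of a group under that level is there only through the other group. That selection favours a difference, so the call on such a gene is no support, and it is named as such below. A list median that counts such a gene is given only as a description. Most of the haem and iron genes that passed were higher, and most of the red cell membrane and enzyme genes that passed were lower. The share that rose was 16.7% for haem synthesis enzymes, under the 23.9% of all genes. It was 36.4% for haem transport and breakdown, counting flvcr2a and flvcr2b, which were dim in control embryos. These are 2 of the 4 genes that rose there, so that share is not set against the share of all genes. On the iron list 33.3% rose, and several of these calls were lost when single arrays were left out. No direction of the haem genes as a set is read from these counts.

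Of the other enzymes of haem synthesis, 6 of 7 listed were measured, and 1 rose, none fell and 5 did not pass, with a median difference of 0.052. The one that rose was alas1, the general counterpart of alas2. Its log2 level was 11.49, 11.51 and 11.50 in setb MO1 embryos, against 11.16, 11.15 and 11.34 in control embryos, which differed by 0.29 ± 0.07 (SE, limma adjusted p = 0.0162). The groups of alas1 did not overlap, as in 30.6% of all genes with setb MO1 higher, and the direction is the opposite of that of alas2. Nothing is read from this contrast, since alas2 was picked on its difference. The call on alas1 was lost without setb MO1 replicate 2 (adjusted p = 0.0534) and without control replicate 2 (0.0719). The genes alad, hmbsb, uros, urod and ppox, which encode the enzymes of the steps between alas2 and fech other than cpox, ranged from -0.17 (uros) to 0.16 (urod) and did not pass.

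Of 35 genes of iron uptake, storage, iron-sulphur cluster assembly and mitochondrial carriers, 24 were measured, and 8 rose, 2 fell and 14 did not pass (33.3% and 8.33%, median 0.15). The largest difference was that of tmem14cb, related to a mammalian transporter of the haem precursor protoporphyrinogen. Its log2 level was 9.71, 10.61 and 10.34 in setb MO1 embryos, against 8.50, 8.51 and 8.87 in control embryos, a difference of 1.59 ± 0.22 (SE, limma adjusted p = 0.00136). The groups of tmem14cb were well apart although the setb MO1 arrays spread widely.

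Next by p were the mitochondrial carrier gene slc25a40 (0.46 ± 0.08), the iron transporter gene slc11a2 (0.46 ± 0.08) and nfs1, a cysteine desulfurase of iron-sulphur assembly (0.27 ± 0.06), with limma adjusted p of at most 0.00999. The slc25a37 paralog slc25a28, which encodes mitoferrin 2 and is named here after its value was seen, rose by 0.37 ± 0.11 (adjusted p = 0.0323). The genes that fell were hebp2, a haem-binding protein gene (-0.37 ± 0.11), and the transferrin receptor gene tfr2 (-0.20 ± 0.07). The receptor gene tfr1a, required for iron uptake by zebrafish red cells and named after its value was seen, was at 11.32, 11.16 and 11.16 in setb MO1 embryos, against 11.39, 11.32 and 11.24 in control embryos. The groups of tfr1a overlapped (-0.10 ± 0.07, adjusted p = 0.292).

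The count on this list depended on single arrays. It was 10 genes in all, 6 without setb MO1 replicate 1, 2 or 3 or control replicate 3, and 5 without control replicate 2. The calls on tmem14cb, slc25a40, slc11a2 and nfs1 stood without any single array. The call on slc25a28 was lost without setb MO1 replicate 1 (adjusted p = 0.101) or 2 (0.101) and without control replicate 2 (0.0989) or 3 (0.0824). That on hebp2 was lost without setb MO1 replicate 3 (0.0624) and control replicate 1 (0.0635) or 3 (0.0525), that on tfr2 when any single array was left out (0.0521 to 0.143) and in the fit with replicate number as block (0.0748).

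Of 15 genes of haem transport and breakdown, 11 were measured, and 4 rose, none fell and 7 did not pass (36.4% rose, median 0.082). Of the 4, flvcr2a and flvcr2b are in the table only through the setb MO1 arrays, with all control arrays under 8.45, which leaves 2 rises. The median counts both, so nothing is read from it. The haem-regulated repressor gene bach1b was at 9.88, 10.08 and 10.14 in setb MO1 embryos, against 9.48, 9.40 and 9.58 in control embryos, a difference of 0.54 ± 0.09 (SE, limma adjusted p = 0.00267). The biliverdin reductase gene blvra, whose enzyme acts after haem oxygenase, also rose (0.38 ± 0.07). The differences of the transporter genes flvcr2a and flvcr2b were 0.78 ± 0.09 and 0.34 ± 0.08. The haem oxygenase gene hmox1a, named after its value was seen, overlapped between the groups at -0.11 ± 0.17 (adjusted p = 0.619).

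Only 3 further globin genes were measured by probe sets with 1 symbol, and 1 fell and 2 did not pass (median -0.18). The alpha-type embryonic globin gene hbae3 was at 12.95, 12.94 and 12.72 in setb MO1 embryos, against 13.20, 13.25 and 13.20 in control embryos, a difference of -0.34 ± 0.08 (SE, limma adjusted p = 0.0119). Leaving out control replicate 2 ended the call on hbae3 (adjusted p = 0.0518). The alpha-type gene hbae1.1 was lower in all 3 setb MO1 arrays but did not pass at -0.18 ± 0.07 (adjusted p = 0.0702). It passed without control replicate 3 (0.0405) and with the trended and robust variance prior (0.0234). It did not pass without any other single array (0.0931 to 0.213) or with the mean of its probe sets (0.262). The beta-type gene hbbe3, close to hbbe2 in the gene order, was at 11.92, 11.84 and 11.72 in setb MO1 embryos, against 11.48, 11.89 and 12.00 in control embryos. Its groups overlapped fully, with a difference of 0.038 ± 0.14 (adjusted p = 0.839).

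Of 19 genes of erythroid transcription factors and their partners, 12 were measured, and 1 rose, 3 fell and 8 did not pass (8.33% and 25%, median -0.052). The largest decreases were those of bcl11ab and bcl11aa, whose mammalian counterpart BCL11A represses fetal globin genes and is also known from neurons. The log2 level of bcl11aa was 9.81, 9.72 and 9.25 in setb MO1 embryos, against 10.96, 10.94 and 11.09 in control embryos, a difference of -1.40 ± 0.14 (SE, limma adjusted p = 0.00041), and bcl11ab changed by -1.71 ± 0.27. Both were lowest in setb MO1 replicate 3. The gene trim33, whose zebrafish mutant moonshine lacks red cells, fell by 0.30 on the log2 scale (adjusted p = 0.0162), a call lost without setb MO1 replicate 2 (0.059) or control replicate 2 (0.0505). The gene klf17, active in the early blood island and in the hatching gland, rose by 0.43 ± 0.09.

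The erythroid master regulator gene gata1a, named after its value was seen, was at 8.67, 8.71 and 8.38 in setb MO1 embryos, against 8.85, 8.29 and 8.36 in control embryos. The groups overlapped at 0.087 ± 0.16 (limma adjusted p = 0.688), and the level was dim in both. The tal1 partner gene lmo2, likewise named afterwards, was at 10.34, 10.42 and 10.47 in setb MO1 embryos, against 10.62, 10.36 and 10.40 in control embryos (-0.050 ± 0.09, adjusted p = 0.67). The groups of lmo2 overlapped too. Nothing is read from a contrast with tal1, which was picked on its difference and had a dim setb MO1 group.

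Of 30 genes of the red cell membrane, red cell enzymes and erythropoietin signalling, 19 were measured, and 9 fell, 2 rose and 8 did not pass (47.4% and 10.5%, median -0.19). The median is the value of rhd, which did not pass and had all setb MO1 arrays under 8.45, so nothing is read from it. Of the 9 that fell, creg1 and epor are in the table only through the control arrays, with all setb MO1 arrays under 8.45, which leaves 7. Of these, jak2b and nt5c2l1, named after their values were seen, lost their calls in 6 and 5 of 12 alternatives. The groups of nt5c2l1 overlapped. The anion exchanger gene slc4a1a, which encodes band 3 of the red cell membrane, was at 11.20, 11.21 and 10.99 in setb MO1 embryos, against 11.89, 11.73 and 11.71 in control embryos. The groups differed by -0.65 ± 0.09 (SE, limma adjusted p = 0.00117). The membrane skeleton genes add2 (-0.68 ± 0.07), an adducin, and ank1b (-0.36 ± 0.07), an ankyrin, fell with adjusted p of at most 0.00536. Other such genes, sptb (-0.038 ± 0.08) and dmtn (-0.13 ± 0.08), named after their values were seen, overlapped between the groups and did not pass. The difference of creg1 was -0.48 ± 0.07.

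The genes that rose on this list were tspan33a, a tetraspanin gene (0.72 ± 0.14), and the signal transducer gene stat5a (0.28 ± 0.09). The call on stat5a was lost without setb MO1 replicate 1 (adjusted p = 0.1) or 3 (0.111) and without control replicate 1 (0.0821) or 2 (0.0911). Named after their values were seen, the carbonic anhydrase gene cahz (-0.45 ± 0.12) and hemgn (-0.58 ± 0.15) fell. The difference of the erythropoietin receptor gene epor, also named afterwards, was -0.44 ± 0.11. The Rh-associated glycoprotein gene rhag, also named afterwards, was at 12.13, 12.02 and 11.99 in setb MO1 embryos, against 12.10, 11.97 and 11.89 in control embryos. The groups of rhag overlapped (0.063 ± 0.08, adjusted p = 0.543).

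The lowest of the 3 setb MO1 arrays was replicate 3 for 10 of the 19 genes of the red cell list (52.6%) and for all 3 globins, against 35.3% of all genes. It was also the lowest for alas2 and hbbe2, while tal1 was lowest in setb MO1 replicate 1. Without setb MO1 replicate 3 the differences were -0.80 for alas2, -0.66 for hbbe2 and -0.58 for slc4a1a. Their signs could not change, since the groups do not overlap.

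**Figure D3:**
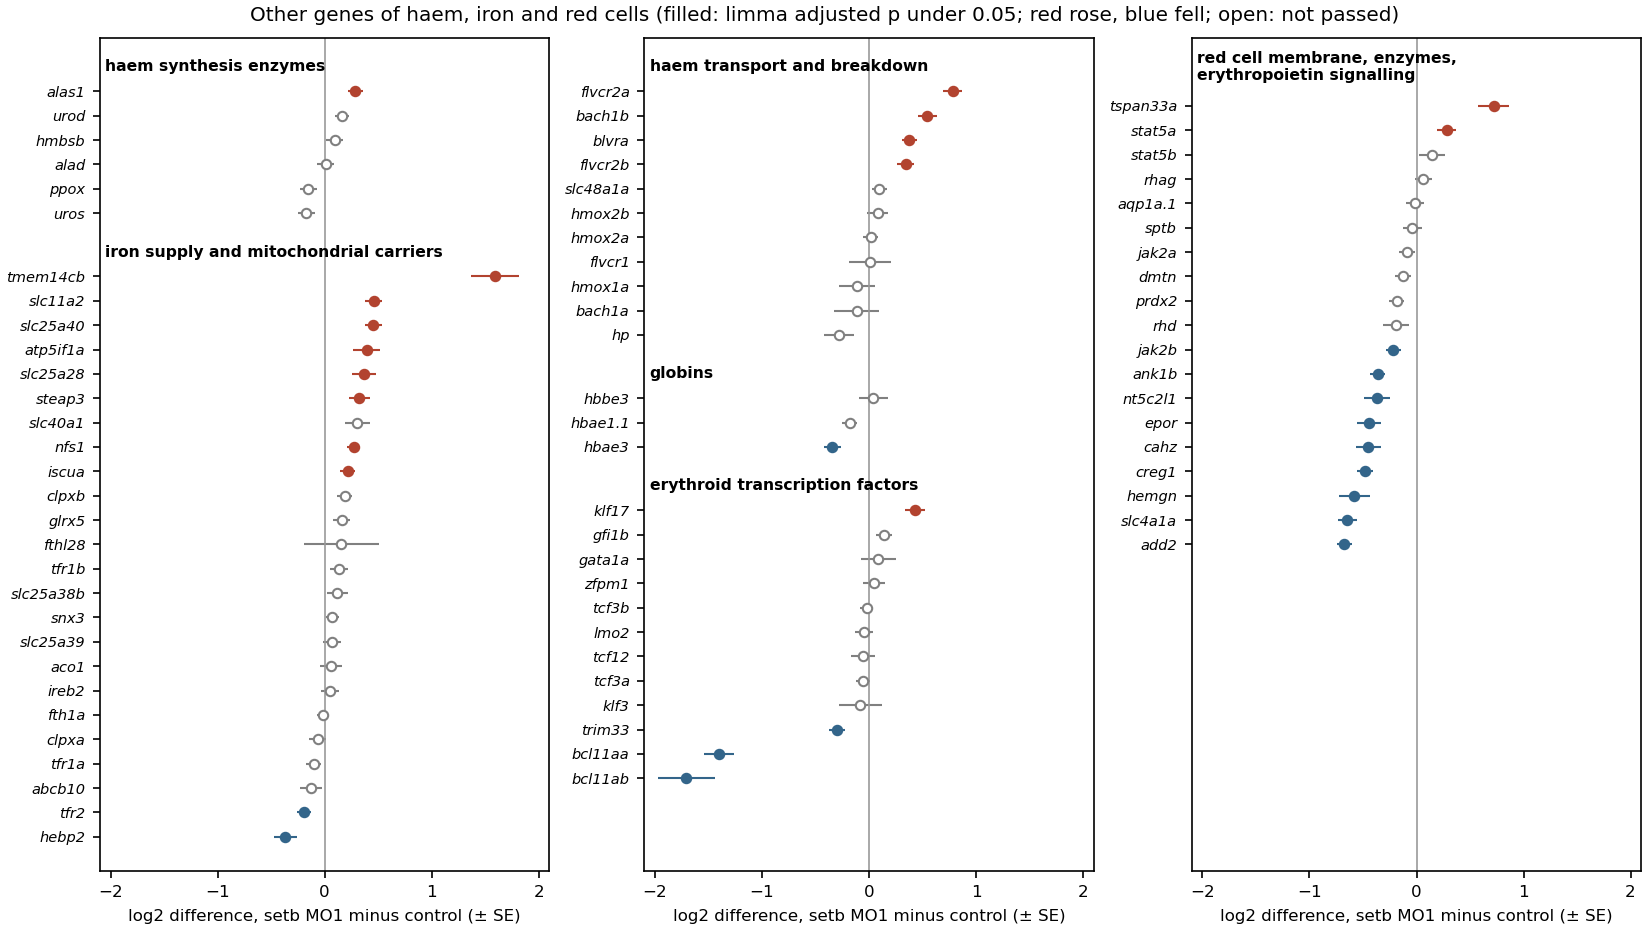
Log2 difference of setb MO1 minus control (x axis, with its SE) for the 75 measured genes of the 6 lists of haem, iron and red cell genes (y axis), filled where the limma adjusted p was under 0.05, red for higher and blue for lower. Filled points of the iron list lie mostly to the right (8 of 24 genes rose) and those of the red cell list mostly to the left (9 of 19 fell, 2 of them with a dim setb MO1 group).

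Markers of other blood and vessel cells were set beside these results. Over all genes 44.7% passed, 23.9% higher and 20.8% lower. The medians of the myeloid, endothelial and spinal neuron lists count genes with a dim group, so nothing is read from them. Of 15 myeloid markers 10 were measured, and 5 fell and 1 rose (50% and 10%, median -0.19). The number that fell was 5 without setb MO1 replicate 3. It was 3 without setb MO1 replicate 1 or 2 or any single control array, since lcp1 and csf1ra no longer passed. The count was likewise 3 with the replicate number as block and with repeated quantile normalization, and 4 with the trended and robust prior. The number that rose was 2 without setb MO1 replicate 1 or control replicate 1. With all arrays, only cebpa, mpeg1.1 and mmp13a had a mean higher in setb MO1 embryos. Each had all control arrays under 8.45, so these counts of rises are no support. The markers ranged from lyz, the lysozyme gene of neutrophils and macrophages (-1.18 ± 0.08), to mmp13a (0.87 ± 0.34, not passed). The mast cell gene cpa5 was at -0.69 ± 0.11 and the transcription factor gene cebpa, with all control arrays under 8.45, at 0.33 ± 0.06. The call on cebpa, the only rise with all arrays, is therefore no support. The mean log2 level of the myeloid markers ranged from 8.83 to 9.0 in setb MO1 arrays and from 8.98 to 9.14 in control arrays. That mean includes cebpa, mmp13a and mpeg1.1, 3 genes with all control arrays under 8.45, so nothing is read from it. Of 7 blood stem and progenitor markers 3 were measured, from myb (-0.27 ± 0.12) to cd34 (0.09 ± 0.07), and none passed. Without setb MO1 replicate 1 mmp13a passed (limma adjusted p = 0.0059). With all its control arrays under 8.45, mmp13a is in the table only through the setb MO1 arrays, so that call is no support. Without control replicate 1, myb passed as a fall (limma adjusted p = 0.025). Of 6 thrombocyte markers 2 were measured, f5 (-0.15 ± 0.12) and thbs1b (0.063 ± 0.09), and neither passed.

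Vessel endothelium shares a mesodermal origin and the gene tal1 with blood. Of 18 endothelial markers 15 were measured, and 6 rose, 1 fell and 8 did not pass (40% and 6.67%, median 0.22). Over all genes 23.9% rose and 20.8% fell, 44.7% in either direction. Without control replicate 2 only 3 rose, with pecam1a, esama and tie1 no longer passed. Without setb MO1 replicate 3 the same 3 no longer passed and lyve1b did, which left 4. The call on etsrp is among the 6 and each smaller count, and is no support, since its control arrays were all dim. The mean log2 level of the endothelial markers was 9.36 to 9.46 in setb MO1 arrays and 9.20 to 9.22 in control arrays. That mean includes etsrp, so nothing is read from it. The gene etsrp, a regulator of endothelial and early blood precursors also called etv2, was at 8.21, 8.47 and 8.61 in setb MO1 embryos, against 7.74, 7.81 and 7.98 in control embryos. Its difference was 0.59 ± 0.11 (SE), and with all control arrays under 8.45 it is in the table only through the setb MO1 arrays. The scavenger receptor genes stab2 (0.73 ± 0.13) and stab1 (0.52 ± 0.08) rose, while fli1 fell by 0.31 on the log2 scale (adjusted p = 0.0381). The call on fli1 was lost without setb MO1 replicate 1 (adjusted p = 0.0887), 2 (0.0708) or 3 (0.107).

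The spinal V2b and Kolmer-Agduhr neurons, which also express tal1, had 6 of 10 markers measured. Of these, 3 fell, 1 rose and 2 did not pass (50% and 16.7%, median -0.31), where 20.8% of all genes fell and 23.9% rose. The tal1 paralog tal2 was at 7.01, 7.22 and 7.11 in setb MO1 embryos, against 8.73, 8.62 and 8.70 in control embryos. The difference of tal2 was -1.57 ± 0.08 (SE). With all setb MO1 arrays under 8.45, tal2 is in the table only through the control arrays, and urp2 only through the setb MO1 arrays. Both calls are therefore no support, which leaves the falls of gata2a and sox1a and no rise. The transcription factor genes gata2a (-0.50 ± 0.10) and sox1a (-0.46 ± 0.08) fell, and urp2, a peptide gene of cells that contact the cerebrospinal fluid, was at 0.42 ± 0.10. The mean log2 level of these markers was 8.87 to 8.99 in setb MO1 arrays and 9.28 to 9.41 in control arrays. That mean includes tal2, which had the widest difference of the list, and urp2, so nothing is read from it. The part of myeloid, endothelial or neuronal cells in the difference of tal1 was not tested.

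**Figure D4:**
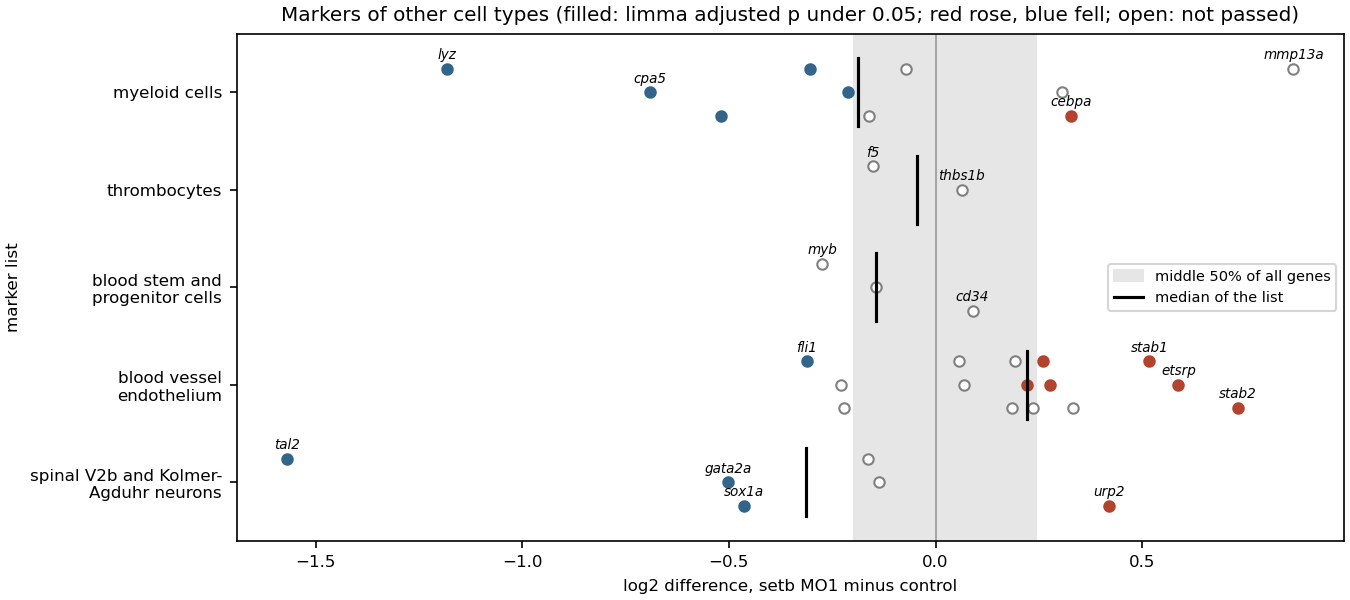
Log2 difference of setb MO1 minus control (x axis) for each measured marker of 5 other cell types (y axis), filled where the limma adjusted p was under 0.05, red for higher and blue for lower, with the median of each list as a bar and the middle 50% of all genes (-0.20 to 0.24) in grey. The medians are -0.19 for myeloid, 0.22 for endothelial and -0.31 for the spinal neuron markers, and each of these counts genes with a dim group. The filled points include cebpa, etsrp, tal2 and urp2, each with a dim group, whose calls are no support.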

How the data were processed

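The authors deposited log2 intensities per probe set for 6 arrays, made with RMA, per the submitters' processing notes, and these were used unchanged. RMA corrects background, quantile normalises arrays and summarises probes. The sources used here give neither its version nor any filter on dim probe sets, and detection calls were not used. The number of arrays limits the precision.

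Groups follow the labelled treatment. Of the probe sets, 11738 had 1 symbol, 413 several and 3575 none in the platform annotation. Of those with 1 symbol, 11497 were matched by Entrez identifier to a RefSeq gene table (assembly GRCz12tu, used only for names and gene order), which changed no symbol. Symbols differing only in case were merged. Each gene was represented by its brightest probe set on average. The comparison used limma 3.58.1 under R 4.3.3 (lmFit and eBayes over all 15726 probe sets, two-sided), adjusted by Benjamini-Hochberg over 11304 genes, with a threshold of 0.05. The fit was run on simulated data in which far fewer genes changed than were called here, so that run gives no error rate for these data. Differences are setb MO1 minus control.

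The 7 genes and all gene lists were chosen with earlier results of these data known. Of each list of haem, iron and red cell genes, the text names up to 4 passed genes in each direction by smallest p. Of each marker list it names the extremes and up to 3 passed genes. It also names the 5 genes most correlated with alas2. Some other names are said to be chosen afterwards. Genes named for a call that changed, for a dim group or to complete a short list follow no preset rule and carry no such remark. Alternatives were repeated quantile normalization, equal array medians, a filter on dim probe sets, another variance prior, the replicate number as a block, the mean of a gene's probe sets and leaving out each array. Whether arrays of the groups were paired, by replicate number or otherwise, could not be decided from so few arrays.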

Additional observations from a re-analysis of the deposited data

How the results depend on the processing

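The sign of the difference of each of the 7 genes stayed the same under each alternative that gave a value, 82 in all, and each moved by less than 1 SD of the replicates. Most of this was fixed in advance and is no support. The groups did not overlap, so leaving out 1 array could not change a sign. The other prior, the block, the mean of probe sets and the dim filter returned unchanged differences. Leaving out the lowest 30% of probe sets by mean level removed cpox and tal1, so no value was had for them there, and it left 2 of 4 calls among haem transport and breakdown genes, with fewer genes tested. The trended and robust prior gave 2 globin calls. Without single arrays, the number of genes called was 5 to 9 for iron supply and mitochondrial carriers, 0 to 1 for haem synthesis enzymes and 0 to 2 for globins. It was 8 to 11 for the red cell list. The cause was not tested. With the replicate number as a block, 4789 of 11304 genes were called, against 5053 without it, with 9 in place of 10 calls on the iron list and 9 in place of 11 on the red cell list. Same-numbered arrays had correlations of their deviations from the group means of -0.0056, -0.32 and 0.33. Differently numbered arrays ranged from -0.31 (setb MO1 replicate 3 with control replicate 1) to 0.38 (setb MO1 replicate 2 with control replicate 1). With so few arrays per group, these values cannot decide whether samples were paired, by number or otherwise. No background correction could be varied, and no scan dates were given in the sources used here.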
